A study of Mus musculus with 244 samples.

Results

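The proteasome subunit genes were all genes of the count table whose symbol begins with Psma to Psmg followed by a digit, 50 of 25122 genes. They comprised 14 constitutive core subunits (7 of the alpha rings and 7 of the beta rings), 3 immunoproteasome subunits, 2 tissue-specific core subunits, 17 regulatory particle subunits, 7 assembly chaperones, 4 activators, the regulator Psmf1 and 2 others. The 2 others were Psmc3ip, a cofactor of meiotic recombination that is not a proteasome subunit, and Psme2b, a near-copy of Psme2 whose reads could be split with it and which was therefore taken as uncertain.

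The study isolated follicles from ovaries of CD-1 mice, an outbred stock, at postnatal day 6, sorted them by eye into stages and dissociated them into single cells, each of which became a SMART-Seq2 library. Oocytes numbered 59, of which 13 came from primordial, 19 from transitioning, 20 from primary and 7 from secondary follicles. Somatic cells numbered 40, 47, 56 and 42 from the same 4 stages; the layer around the oocyte is one of granulosa cells, squamous in resting and cuboidal in growing follicles. No group carried a transgene or treatment, several ovaries were pooled for an isolation, and the labels gave no animal. Each comparison therefore set 1 group of cells against another with no replicate, no test was made, and all 95% intervals cover counting error only.

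The proteasome degrades proteins tagged with ubiquitin. Its core particle is a barrel of alpha and beta rings, and 3 beta subunits, Psmb5, Psmb6 and Psmb7, carry the proteolytic sites. The regulatory particle caps the barrel, with a base of ATPases and scaffolds that unfolds the substrate and a lid that removes the ubiquitin. In cells exposed to interferon, Psmb8, Psmb9 and Psmb10 replace the 3 catalytic subunits to form the immunoproteasome, and Psme1 with Psme2 form the activator PA28. Oocytes carry a large store of maternal mRNA and protein, and granulosa cells proliferate once a follicle begins to grow.

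The libraries were made on 6 plates, and a gene had values for every cell of a plate or for none of them. Only 5 members (Psma8, Psmb1, Psmb10, Psme2b and Psmg2) were listed on every plate, 7 on 2 to 5 plates and 38 on 1 plate. The plates listed 26, 13, 13, 13, 17 and 12 members. All comparisons were accordingly made within a plate, and the members compared differ from plate to plate. Plate 3 held 22 transitioning somatic cells and no oocytes, and it was the only plate with Psma2, which had reads in 22 of 22 cells, and with Psmd9, which had reads in 11 of 22. Total counts ranged from 5440 to 801258 in oocytes (median 96024) and from 5150 to 409310 in somatic cells (median 72279). The summed level of 9 oocyte markers, as far as a plate listed them, had medians of 6335 to 54405 CPM (a gene's counts scaled to 1000000 counts in all) in the oocytes of a plate, against 0 to 2792 CPM in its somatic cells. The median share of rRNA reads was lower in oocytes on all 5 plates, at 4.46% to 15.7%, against 12.2% to 39.5% in somatic cells. Granulosa markers had reads in every somatic cell of plates 1, 3, 4 and 6, in 65 of 66 of plate 5 and in 28 of 32 of plate 2. Stroma markers had reads in 32 of 66 somatic cells of plate 5, 19 of 32 of plate 2 and 11 of 37 of plate 1, with summed levels of up to 47170, 60448 and 14167 CPM, and the part of stroma-marked cells in the somatic values was not tested. In 5 somatic cells the summed core level stood apart, over 1.5 times that of the next cell of its plate and stage: 11426 CPM in a primordial and 11150 CPM in a transitioning cell of plate 1 (next 3772 and 5873 CPM), 13846 CPM in a primary cell of plate 2 (next 5720), 9501 CPM in a transitioning cell of plate 3 (next 3280) and 9033 CPM in a secondary cell of plate 5 (next 1933). On plates 1, 2 and 4 the plate codes of the metadata also differed between most oocytes and most somatic cells, so that library handling and cell type cannot be told apart there.

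Promoter sequence was available for 42 of the 50 members (RefSeq, GRCm38.p6), and 4 motifs were searched on both strands in the 250 bases before each start. The ETS site, CCGGAAG, occurred in 12 of 42 members and in 7.05% of all 27025 promoters. Among the members it occurred in 8 of 14 regulatory particle genes and 0 of 11 core genes. It occurred in 0 of 5 genes of the immunoproteasome and PA28 (Psmb8, Psmb9, Psmb10, Psme1 and Psme2). The antioxidant response element, TGACNNNGC, the kind of site that Nrf factors bind, occurred in 5 members, Psmb5 and Psmb6 of 11 core genes, Psmc6 and Psmd12 of 14 regulatory particle genes and Psmd9, and in 10.1% of all promoters. The gamma-activated sequence, TTCNNNGAA, occurred in Psmb8 and Psmg1 and in 7.18% of all promoters. The interferon-stimulated response element, GAAA and GAAA with 2 bases between them, occurred in Psmb3, Psmd4 and Psmd9 and in 3.04% of all promoters. It occurred in 0 of the 5 immunoproteasome and PA28 genes. A match is a description of the letters in this window and not of a bound site. The 4 regulatory particle promoters below are those whose ETS site lies outside annotated exons. The site is in capitals, read on the strand of the gene. Whether it has a part in the read levels was not tested.
Psmd2 (chr16:20651522-20651651, +): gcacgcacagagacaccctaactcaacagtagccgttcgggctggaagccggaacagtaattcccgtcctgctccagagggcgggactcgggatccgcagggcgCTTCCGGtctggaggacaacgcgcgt
Psmd4 (chr3:95042615-95042744, −): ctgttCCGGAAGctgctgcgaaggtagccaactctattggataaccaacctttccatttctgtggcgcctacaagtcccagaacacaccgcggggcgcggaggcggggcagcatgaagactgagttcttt
Psmd11 (chr11:80428485-80428614, +): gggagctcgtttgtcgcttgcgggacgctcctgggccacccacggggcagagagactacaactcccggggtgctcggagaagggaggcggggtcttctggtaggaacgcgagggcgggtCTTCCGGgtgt
Psmc6 (chr14:45329694-45329787, +): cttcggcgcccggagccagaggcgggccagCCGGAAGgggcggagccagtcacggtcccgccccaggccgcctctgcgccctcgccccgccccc
The promoters of the catalytic core genes Psmb5 and Psmb6 hold no ETS site and are shown with their antioxidant response element in capitals; Psmc6 and Psmd12 hold both kinds of site.
Psmb5 (chr14:54618023-54618245, −): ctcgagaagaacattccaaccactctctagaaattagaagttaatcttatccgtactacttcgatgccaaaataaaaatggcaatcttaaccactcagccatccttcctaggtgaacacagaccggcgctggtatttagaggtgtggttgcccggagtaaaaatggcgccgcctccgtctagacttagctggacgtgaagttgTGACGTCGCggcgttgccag
Psmb6 (chr11:70525227-70525356, +): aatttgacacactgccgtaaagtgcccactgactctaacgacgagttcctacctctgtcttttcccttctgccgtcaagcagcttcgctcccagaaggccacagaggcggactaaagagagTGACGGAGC
For Psmb8, the immunoproteasome counterpart of Psmb5, the gamma-activated sequence is shown in capitals with its flanks; this stretch also lies inside an exon of an alternative Psmb8 transcript.
Psmb8 (chr17:34198088-34198116, +): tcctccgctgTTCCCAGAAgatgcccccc

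The first question was which proteasome genes differed between the oocyte and the somatic cells around it. Immunoproteasome genes and the activator gene Psme1 were the members furthest below the somatic level in oocytes, a few members with a germline or regulatory role were above it, and most core and regulatory particle genes lay within 2-fold. A member was called where its log2 ratio was at least 1 in size and the mean CPM of both groups was at least 10. On plate 1, 25 of 26 members passed the minimum, and 3 were higher and 9 lower in oocytes, where 25.9% of all tested genes were higher and 37.9% lower. On plate 2, 1 of 11 was higher and 5 lower (21.5% and 59.1% of all genes). On plate 4, 0 of 11 were higher and 2 lower (23.1% and 53.7%). On plate 5, 3 of 16 were higher and 5 lower (23.3% and 48%). On plate 6, 0 of 9 were higher and 5 lower (24.1% and 51.7%). The share of members called higher was under the share of all genes on every plate. The median log2 ratio of the members that passed was -0.54, -0.57, -0.54, -0.20 and -1.34 on plates 1, 2, 4, 5 and 6, beside -0.33, -1.996, -1.31, -0.84 and -1.15 for all genes tested. Since most genes lay below 0, a member near 0 ranked above the typical gene of its plate.

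**Figure D1:**
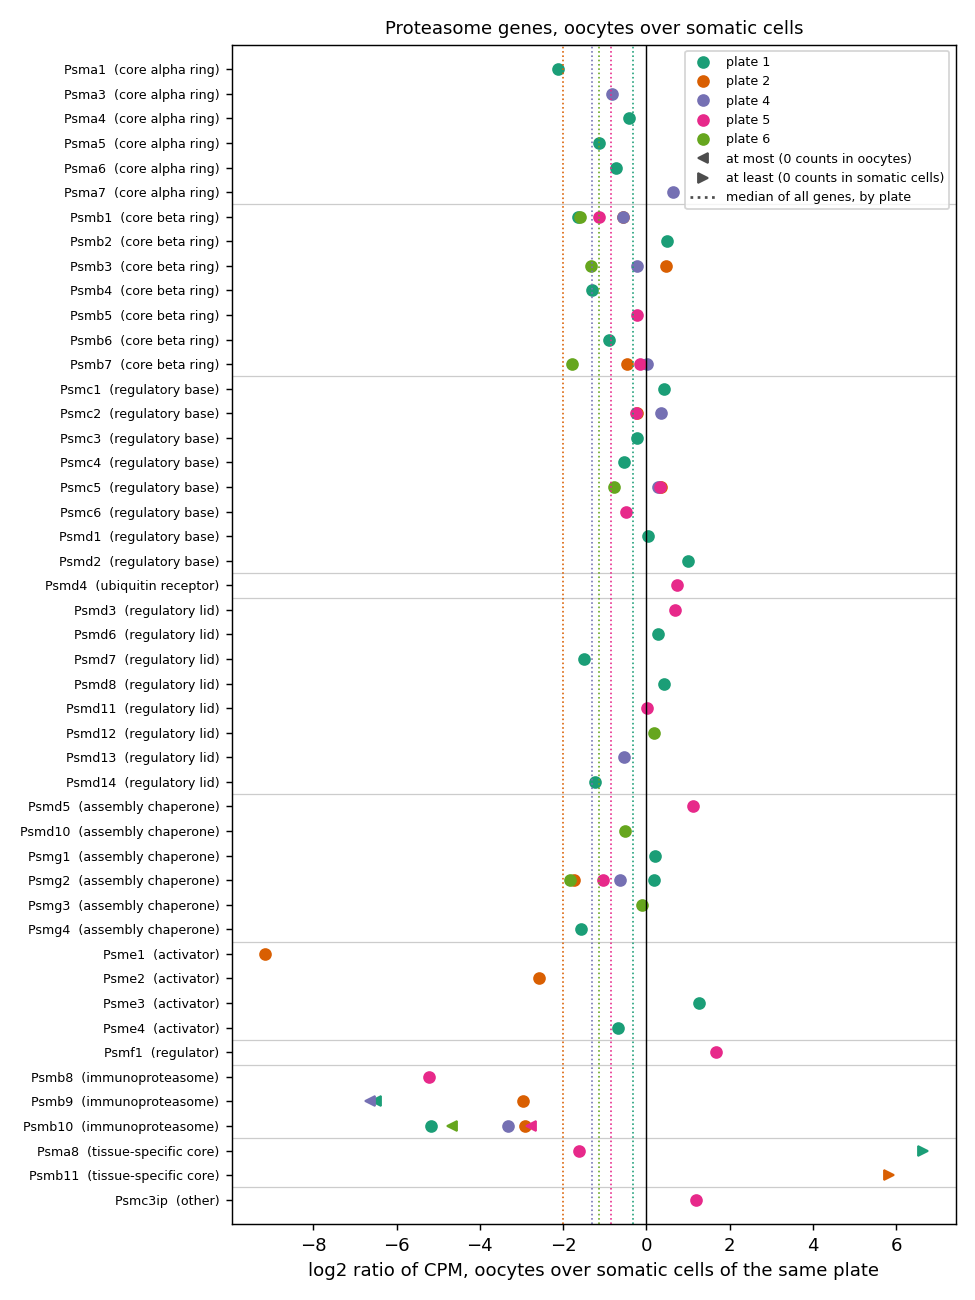
Log2 ratio of summed CPM, oocytes over somatic cells of the same plate (horizontal axis), for each proteasome gene that passed the minimum (rows, grouped by role); colours are plates, triangles are bounds where a group had no counts and dotted lines are the medians of all genes on a plate. Psmb8, Psmb9, Psmb10 and Psme1 lie to the left at -2.76 or below, and Psma8 on plate 1 and Psmb11 on plate 2 to the right at 5.84 or above, while most core and regulatory subunits lie between -2.11 and 1.01 under these totals.

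Among the constitutive core genes, Psmb1, a beta-ring subunit without a proteolytic site and the only constitutive core gene listed on every plate, had log2 ratios below 0 on all 5 plates under these totals. On plate 6, Psmb1 ranged from 141.8 to 399 CPM in the 13 oocytes (median 244.6) and from 149.5 to 1451 CPM in the 12 somatic cells (median 729). On plate 5 it ranged from 111.7 to 565 CPM in 10 oocytes (median 272) and from 0 to 4474 CPM in 66 somatic cells (median 467). On plate 1 it ranged from 147.2 to 735 CPM in 13 oocytes (median 260) and from 0 to 2580 CPM in 37 somatic cells (median 432). The ranges overlapped on all 3 plates, with the oocyte median below the somatic median each time. The log2 ratio of the summed levels was -1.64 on plate 1, -1.14 on plate 5 and -1.60 on plate 6, all called, and -0.57 on plates 2 and 4, which were not. Without the cells that stood apart it was -1.31 on plate 1, and on plate 5 it was -0.70 and no longer called. Relative to the median of all genes the ratios were -1.31, -0.30 and -0.46 on plates 1, 5 and 6 and turned to 1.43 and 0.74 on plates 2 and 4, and with TMM scaling the plate 6 ratio was -0.78 and not called.

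Plate 1 listed 8 core genes, of which 4 were lower in oocytes and none higher. Psma1, an alpha-ring subunit, had 0 to 302 CPM in oocytes (median 183.4), with reads in 11 of 13 cells, and 0 to 1709 CPM in somatic cells (median 29.9). The groups overlapped, and the oocyte median was the higher although the summed level was 150 CPM in oocytes and 650 CPM in somatic cells, a log2 ratio of -2.11. The somatic reads lay in 21 of the 37 cells. Psma5 (-1.15) and Psmb4 (-1.31) were the other 2 called core genes, after Psma1 and Psmb1, but Psmb4 stood at -0.80 without the cells that stood apart. Psma4, Psma6, Psmb2 and Psmb6 were not called, at -0.42, -0.72, 0.49 and -0.90. On plate 6 all 3 core genes were called lower: Psmb3 had 184.5 CPM in oocytes and 467 CPM in somatic cells, and Psmb7, the trypsin-like catalytic subunit, had 124.4 CPM and 431 CPM. With TMM scaling their ratios on that plate were -0.52 and -0.97 and neither was called. Elsewhere no core gene other than Psmb1 was called, with Psma3 at -0.82 and Psma7 at 0.64 on plate 4, Psmb5, the chymotrypsin-like subunit, at -0.24 on plate 5, and Psmb7 at -0.47, 0.02 and -0.16 on plates 2, 4 and 5. The plate 5 value of Psmb5 combines stages that differed, with 0.28 in primary cells and -2.04, a call, in secondary cells.

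With all stages together and under these totals, the summed regulatory particle genes were closer to the somatic level than the summed core genes. Primordial cells of plate 1 alone went the other way, with log2 ratios of 1.62 for the regulatory particle and 0.23 for the core. In secondary cells of plate 6 alone they were -1.13 and -1.65. With all stages together, the only regulatory particle gene called higher was Psmd2, the base scaffold that receives ubiquitin-carrying shuttle proteins (chr16:20651652-20663414). Psmd2 had 138.2 to 2058 CPM in the 13 oocytes of plate 1 (median 1406) and 0 to 3864 CPM in its 37 somatic cells (median 40.0), of which 20 had reads. Every oocyte had reads, and the highest values were in somatic cells. The summed levels were 1308 CPM in oocytes and 649 CPM in somatic cells, a log2 ratio of 1.01 (95% interval 0.95 to 1.08), just inside the limit for a call, and it was 0.89 without the cells that stood apart. Psmd7 and Psmd14, the lid pair whose Psmd14 subunit cuts ubiquitin from the substrate, were lower in oocytes, at 167.9 CPM each against 477 CPM and 394 CPM in somatic cells (-1.51 and -1.23). The ATPases Psmc2 and Psmc5, listed on 3 and 4 plates that held both cell types, were called on none of them with all stages together, with log2 ratios of -0.24 to 0.34 and -0.77 to 0.34. In secondary cells alone Psmc2 was lower in oocytes on plate 5 (-1.24) and Psmc5 on plate 6 (-1.33). On plate 5, the lid subunit Psmd3 had 401 to 1055 CPM in oocytes (median 880) and 0 to 2768 CPM in somatic cells (median 438), a log2 ratio of 0.70. The ubiquitin receptor Psmd4 stood at 0.73 there, Psmc6 at -0.48 and Psmd11 at 0.02.

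Setting the core against the regulatory particle within a cell removes the choice of scaling. The core genes listed on a plate were summed, as were the regulatory particle genes, and the core share is the share of core reads among both. On plate 1 the core share had a median of 39.9% in oocytes (23.9% to 48.2%) and of 51.6% in somatic cells (8.80% to 100%), and 13 of 13 oocytes lay below the somatic median. On plate 5 the medians were 22.3% in oocytes (11.8% to 25.3%) and 28.3% in somatic cells (4.55% to 80.3%), with 10 of 10 oocytes below the somatic median. On plate 6 they were 42.3% in oocytes (26.3% to 62.9%) and 61.8% in somatic cells (48% to 77.8%), with 12 of 13 oocytes below the somatic median and 10 of 13 below all 11 somatic cells that had enough reads for a value. On plates 2 and 4 the medians were closer, at 54.4% in oocytes and 63.6% in somatic cells, and at 62.5% and 69.7%, and 6 of 8 and 10 of 15 oocytes lay below the somatic median.

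From the summed counts, the log2 ratio of the core minus that of the regulatory particle was -0.997 (-1.05 to -0.95) on plate 1, -0.33 (-0.40 to -0.27) on plate 2, -0.24 (-0.30 to -0.18) on plate 4, -0.86 (-1.002 to -0.72) on plate 5 and -1.20 (-1.44 to -0.96) on plate 6. The direction held under the alternatives tried on plates 1, 5 and 6, at -0.72 on plate 1 and -0.49 on plate 5 without the cells that stood apart, but not on plate 2, where it was 0.23 without the cell that stood apart, 0.31 without the deepest cell of each group and 0.20 without the most abundant core and regulatory genes, nor on plate 4, where it was 0.051 as a mean of single-cell CPM and 0.17 after thinning every cell to 5000 counts. The core sum itself was 2233 CPM in oocytes and 4260 CPM in somatic cells on plate 1, and 548 CPM and 1623 CPM on plate 6. Per cell, however, the plate 1 median was 2790 CPM in oocytes and 2274 CPM in somatic cells. There 8 of 13 oocytes lay above the somatic median and 5 below, whereas on plate 6 13 of 13 lay below. The log2 ratio of the plate 1 core sum was -0.93 with all cells and -0.19 as a mean of single-cell CPM. It was 0.23 in primordial and -1.13 in primary cells alone. Relative to the median of all genes the core sum stood at -0.60, 1.74, 1.19, 0.25 and -0.42 on plates 1, 2, 4, 5 and 6, and the regulatory particle sum at 0.39, 2.08, 1.43, 1.11 and 0.78, so that the sign of the core sum depended on the scaling on plates 2, 4 and 5. The regulatory particle sum stood at 0.07, 0.08, 0.12, 0.27 and -0.36 under the plate totals and at -0.28, -0.34 and -0.23 on plates 1, 2 and 4 under totals over the genes listed on every plate, so that its sign depended on the scaling on plates 1, 2, 4 and 6. On plate 5 it stood at -0.0015 in primary and -0.41 in secondary cells alone, so that its sign there did not hold in either of these stages. Core transcripts are also shorter, with a median of 1162.5 bases against 1636 bases for regulatory particle transcripts, and whether transcript length has a part in the difference was not tested.

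**Figure D2:**
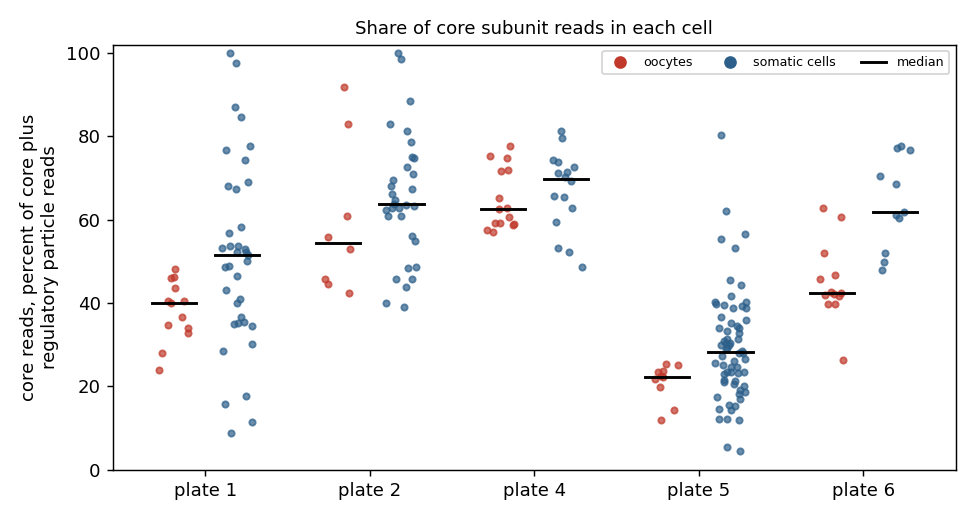
Core reads as a percentage of core plus regulatory particle reads (vertical axis) in each oocyte and each somatic cell by plate; points are cells and bars are medians. The oocyte median is below the somatic median on each of the 5 plates, 39.9% against 51.6% on plate 1, 22.3% against 28.3% on plate 5 and 42.3% against 61.8% on plate 6, and the ranges overlap; the genes summed differ between plates.

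The plate 1 comparison changed with thinning and with the stage. After every cell was thinned to 5000 counts, 7 of 24 members were higher and 1 lower in oocytes, where 33% of all genes were higher and 21.9% lower and the median of all genes itself was 0.29 in place of -0.33; Psmd14 then stood at 0.12, Psme3 at -0.076 and Psmg4 at 0.050. Among primordial cells alone (5 oocytes and 19 somatic cells) 11 of 23 members were higher and 0 lower in oocytes (38.6% and 37.5% of all genes), led by the chaperone Psmg1 (3.55), by Psmd2 (2.54), Psmb2 (2.25), Psmd1 (2.23) and Psmd6 (2.04), and by Psma8, described below. Psmd2 had 138.2, 958, 1808, 1820 and 2058 CPM in the 5 primordial oocytes, against 0 to 1282 CPM in the 19 primordial somatic cells (median 0), where 7 had reads. Psmd1, the other large base scaffold, had 403, 595, 634, 838 and 919 CPM in those oocytes, against 0 to 4034 CPM in the somatic cells (median 0), where 5 had reads. All 5 oocytes had reads of both scaffolds and most primordial somatic cells had none. The median total count was 488778 in these oocytes, against 63071 in the somatic cells, and 3 of the 5 oocytes carry the time code of another stage. Without all cells whose labels differ, the plate 1 regulatory particle sum over all stages was -0.45 in place of 0.07, and the part of depth in these values was not tested.

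Among primary cells alone (7 oocytes and 5 somatic cells) 2 of 25 members were higher and 10 lower (31.1% and 39.8% of all genes), the lowest outside the immunoproteasome being Psmd7 (-3.07), Psma1 (-2.31) and Psmd14 (-2.08). The share of members that were lower, 10 of 25, lay near that of all genes. On plate 2, 7 of the 8 oocytes were primordial and all 32 somatic cells primary, so that cell type and stage cannot be told apart there. With primary cells only, plate 5 (4 oocytes and 19 somatic cells) had 2 of 16 higher and 6 lower (25.2% and 53.1% of all genes). With secondary cells only, plate 6 (2 oocytes and 11 somatic cells) had 0 of 9 higher and 8 lower (20.1% and 48.3% of all genes), and plate 5 (5 and 26) had 2 of 15 higher and 8 lower (20% and 56.2%), where the 8 of 15 were near the share of all genes.

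Immunoproteasome subunits were near or at 0 in oocytes on every plate that listed them. Psmb10, the counterpart of Psmb7 (chr8:105935735-105938444), was the one listed on every plate. On plate 1 it had reads in 2 of 13 oocytes, against 7 of 37 somatic cells, and 1.16 CPM over all oocytes, against 41.9 CPM over all somatic cells, a log2 ratio of -5.17. On plates 2 and 4 it had reads in 6 of 8 and 9 of 15 oocytes, with highest values of 31.9 CPM and 75.2 CPM, against highest values of 940 CPM and 721 CPM in somatic cells, where 10 of 32 and 9 of 16 had reads (-2.92 and -3.31). On plates 5 and 6 it had no count in any of the 10 and 13 oocytes, against 98 counts in 18 of 66 and 39 counts in 5 of 12 somatic cells, so that the log2 ratio was at most -2.76 and -4.67, with a floor of 3 counts over the oocytes of a plate. Oocyte reads of Psmb10 were thus few but present on plates 2 and 4, and the somatic reads came from a minority of cells on plates 1, 2, 5 and 6.

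Psmb9, the counterpart of Psmb6 (chr17:34181987-34187764), had no count in 13 oocytes of plate 1 and 419 counts in 10 of 37 somatic cells (at most -6.48). On plate 4 it had none in 15 oocytes and 281 counts in 8 of 16 somatic cells (at most -6.64). On plate 2 it had 8 counts in 1 of 8 oocytes and 62.7 counts in 3 of 32 somatic cells (-2.97). Psmb8 (chr17:34197721-34201454), listed on plate 5, had 1 count in 10 oocytes and 180 counts in 24 of 66 somatic cells, whose highest value was 852 CPM, a log2 ratio of -5.22 (95% interval -10.53 to -2.73). Relative to the median of all genes on their plates the ratios of the 3 genes remained below 0 on every plate where they were called, at -0.92 and -0.98 for Psmb10 and Psmb9 on plate 2 and at -1.92 or below elsewhere. Psmb9 overlaps Tap1, and Psmb8 and Psmb10 overlap antisense genes, on the opposite strand, and without strand in the counting their reads cannot be told apart. The same limit holds for other members that overlap a gene. Among them, Psme1 overlaps Emc9, Psmb7 overlaps Nek6, Psmd5 overlaps Cutal and Psmc3ip overlaps Mlx, each on the opposite strand.

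The immunoproteasome subunit was the smaller part of each catalytic pair in both cell types. Psmb8 made up 0.447% (exact 95% interval 0.0113% to 2.46%) of Psmb5 and Psmb8 counts in oocytes of plate 5, against 12.5% (10.8% to 14.3%) in somatic cells. Psmb9 made up 0 of its pair with Psmb6 in oocytes of plate 1 (0% to 0.271%), against 9.60% (8.74% to 10.5%) in somatic cells. Psmb10 made up 1.05% (0.725% to 1.47%) of its pair with Psmb7 in oocytes of plate 2, against 5.47% (4.83% to 6.17%) in somatic cells, and 2.29% (1.66% to 3.07%) in oocytes of plate 4, against 19.1% (17.5% to 20.9%). On plate 5 it made up 0 in oocytes (0% to 2.06%), against 9.32% (7.63% to 11.2%) in somatic cells. On plate 6 it made up 0 in oocytes (0% to 3.27%), against 16.6% (12.1% to 21.98%) in somatic cells. There 1 transitioning somatic cell held 14 of the 39 Psmb10 counts, and the 11 secondary cells alone gave 11.7% (7.70% to 16.8%). The constitutive subunit held most of each pair's counts in both cell types, and the oocyte interval was below the somatic interval in every pair.

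Leukocytes express these subunits, so leukocyte markers were read in the same cells. On plate 5, 5 of the 24 somatic cells with Psmb8 reads had reads of any of the 7 leukocyte markers, against 6 of 42 without Psmb8, and so had 5 of the 18 with Psmb10, against 6 of 48 without. Endothelial markers had reads in 7 of the 18 with Psmb10, against 6 of 48 without. Stroma markers had reads in 12 of the 18 with Psmb10, against 20 of 48 without. For Psmb8 the stroma values were 10 of 24 with it and 22 of 42 without. The granulosa markers had median sums of 11540 CPM with Psmb10 and 17416 CPM without, and of 18447 CPM with Psmb8 and 16756 CPM without. Of the leukocyte markers Cd52, Tyrobp and Lyz2 were at 0 in all somatic cells of the plate, and H2-Aa had reads in 9 of 66. On plate 3, 4 of 10 somatic cells with Psmb10 had leukocyte marker reads, against 1 of 12 without. H2-Aa was the only leukocyte marker with reads there, in 5 of 22 somatic cells. It also had reads in 11 of 13 oocytes of plate 1 and 5 of 10 of plate 5, so its reads were not particular to leukocytes. On plate 1, 2 of 10 somatic cells with Psmb9 had such reads, against 3 of 27 without, with Cd52, Tyrobp, Cd74 and H2-Aa at 0. Granulosa markers had reads in 24 of 24 and 10 of 10 of the cells with Psmb8 and with Psmb9, and also in 41 of 42 and 27 of 27 without. Most cells with these subunits had no leukocyte marker reads, and the part of other cell types in the somatic level was not tested.

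The activator subunits differed in direction. Psme1 (chr14:55578123-55581529), listed on plate 2, had no reads in 7 of 8 oocytes and 7.98 CPM in the other, against 0 to 1926 CPM in 32 somatic cells (median 585), of which 26 had reads. The log2 ratio of its summed counts, 4 in oocytes and 2286 in somatic cells, was -9.16 (-11.04 to -7.80), the lowest of any member. Its partner Psme2 had 25.6 to 295 CPM in oocytes (median 77.7), with reads in 8 of 8, and 0 to 1895 CPM in somatic cells (median 387), with reads in 31 of 32, a ratio of -2.57. Psme2 was therefore read in oocytes where Psme1 nearly was not. Granulosa markers had reads in 25 of the 26 somatic cells with Psme1 and in 3 of the 6 without, and the stroma markers had a median sum of 43.8 CPM in the cells with Psme1 and of 21357 CPM in those without. Psme3, the activator of the nuclear proteasome, was higher in oocytes of plate 1, with 0 to 226.6 CPM (median 67.3; reads in 9 of 13) against 0 to 908 CPM in somatic cells (median 0; reads in 8 of 37), a ratio of 1.26. The oocyte values lay within the somatic range. Psme4, another nuclear activator, stood at -0.69.

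Psma8 and Psmb11, the tissue-specific core subunits, are known in mice from spermatocytes and from cortical thymic epithelium. Psma8 (chromosome 18) had 0, 10.2, 119.7, 182.3 and 339 CPM in the 5 primordial oocytes of plate 1 and 0 to 186.6 CPM in the 7 primary oocytes (median 100.9), with reads in 9 of 13 oocytes in all, against no count in 37 somatic cells. Its 55.5 CPM over the oocytes gave an at least 99.4-fold higher level in oocytes. On plate 4 it had 38 counts in 6 of 15 oocytes and none in 16 somatic cells, below the minimum level. On plates 2, 5 and 6 it had reads in 1 of 8, 2 of 10 and 2 of 13 oocytes, against 1 of 32, 11 of 66 and 0 of 12 somatic cells, and on plate 3 in 0 of 22 somatic cells. On plate 5 the direction was opposite, with 17 counts in oocytes and 250 in somatic cells (-1.61), of which 1 somatic cell held 44.8%, and the ratio was -0.82 without the cell that stood apart in core level and 0.92 after thinning to 5000 counts. Oocyte markers had reads in 7 of the 11 plate 5 somatic cells with Psma8 and in 35 of the 55 without. Their median sums were 171.97 CPM with Psma8 and 29.75 CPM without. Stroma markers had reads in 9 of the 11 and 23 of the 55, with median sums of 188.57 CPM and 0 CPM. Endothelial markers had reads in 4 of the 11 and 9 of the 55, and leukocyte markers in 2 and 9. Granulosa markers had reads in 11 of the 11 and 54 of the 55. The part of oocyte material or of other cell types in the somatic Psma8 reads was not tested. Psmb11 (chr14:54621433-54629556), listed on plate 2, had 0 to 96.6 CPM in 8 oocytes (median 47.7), with reads in 7, and no count in 32 somatic cells. Its 49.2 CPM over the oocytes gave an at least 57.2-fold higher level in oocytes, and no annotated gene overlaps it or Psma8.

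**Figure D3:**
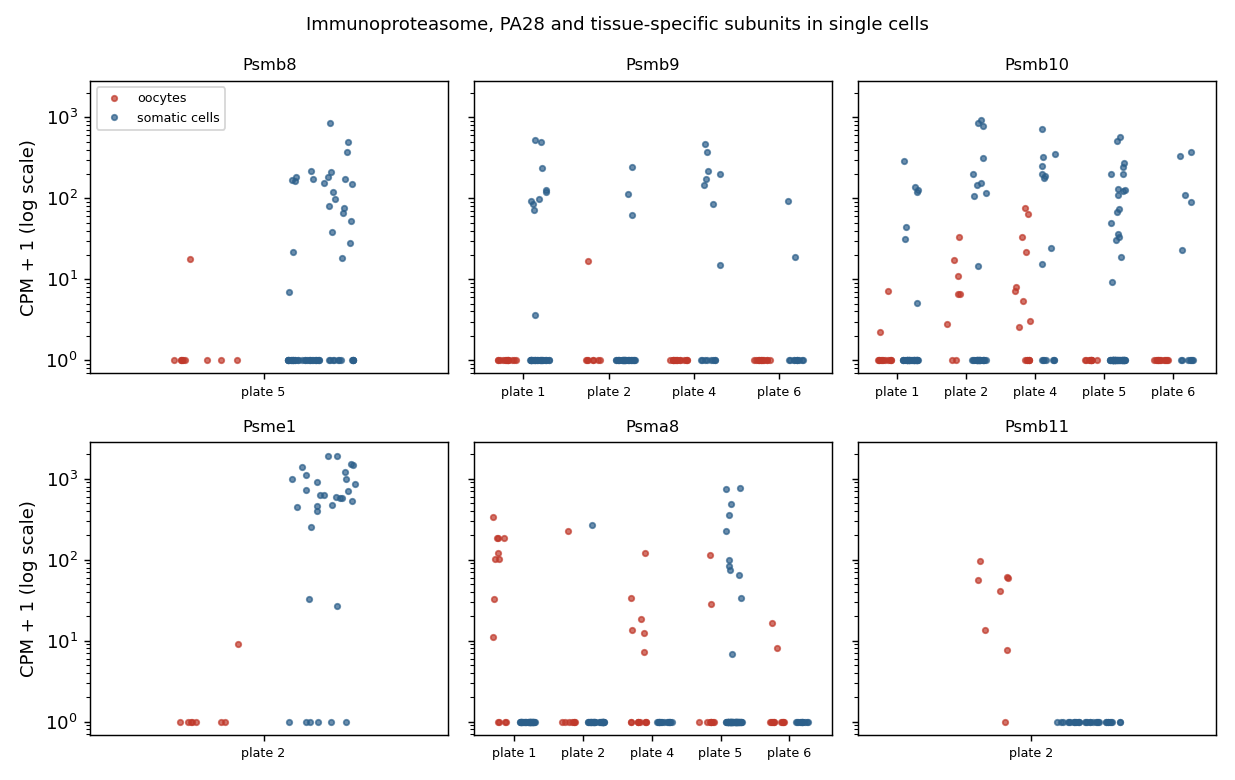
CPM plus 1 (vertical axis, log scale) of Psmb8, Psmb9, Psmb10, Psme1, Psma8 and Psmb11 in each oocyte and somatic cell of the plates that list the gene and hold both cell types; points are cells, and cells without reads lie at 1. Oocytes are at or near 0 for Psmb8, Psmb9 and Psme1 and reach 75.2 CPM for Psmb10, Psmb11 has reads in 7 of 8 oocytes and 0 of 32 somatic cells, and Psma8 has reads in 9 of 13 oocytes and 0 of 37 somatic cells on plate 1 but in 2 of 10 and 11 of 66 on plate 5.

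Among assembly chaperones and regulators, Psmf1, a protein that binds the core and regulates its activity (chr2:151715812-151744186), had the highest log2 ratio of the members on plate 5. Psmf1 ranged from 350 to 1011 CPM in the 10 oocytes (median 623) and from 0 to 1252 CPM in 66 somatic cells (median 143.7), of which 44 had reads. All oocytes lay above the somatic median, and the log2 ratio was 1.66 (1.49 to 1.83). After thinning to 5000 counts, reads remained in 10 of 10 oocytes and 28 of 66 somatic cells. Psmd5, a chaperone of the regulatory particle base, had 266 to 598 CPM in the oocytes (median 328) and 0 to 1025 CPM in somatic cells (median 50.7; reads in 37 of 66), a ratio of 1.12. Psmc3ip had reads in 10 of 10 oocytes and 21 of 66 somatic cells (1.20). Psmg2, a chaperone of alpha-ring assembly, was lower in oocytes on plates 2, 5 and 6 (-1.73, -1.04 and -1.84) and stood at 0.19 and -0.63 on plates 1 and 4. Relative to the median of all genes, however, it stood at 0.27 on plate 2, so that its direction there depended on the scaling. Psmg4 was lower on plate 1 (-1.58, and -0.66 without the cells that stood apart), and Psmg1 (0.21), Psmg3 (-0.11) and Psmd10 (-0.51) were not called.

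Per kilobase of transcript, the most abundant listed members in oocytes were Psmb2 on plate 1 (634 CPM per kb), Psmb3 on plate 2 (1508), Psma7 on plate 4 (1539), Psmd4 on plate 5 (551) and Psmc5 on plate 6 (269). In somatic cells they were Psmb6 on plate 1 (920), Psmb3 on plate 2 (1086), Psmb5 on plate 5 (428) and Psmb3 on plate 6 (610). These are levels, and the order holds only among the genes a plate listed.

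The second question was how the members changed with the stage of the follicle. In oocytes 1 of the 4 comparisons had no member called, and in the other 3 the members called were, with 1 exception, lower in the later stage, in shares near or above those of all genes. On plate 1, primary oocytes (7) had 1 member higher and 7 lower than primordial oocytes (5) of 23 tested, where 11% of all genes were higher and 29% lower. Psma1 was higher, with 0 to 302 CPM in primary oocytes (median 203.4) and 0, 32.7, 146.2, 148.7 and 239.5 CPM in primordial oocytes (1.06). Psmd7 (-1.73), Psma8 (-1.50), the ATPases Psmc1 (-1.31) and Psmc3 (-1.19), Psmg1 (-1.27), Psmd14 (-1.10) and Psmg4 (-1.05) were lower. This set rests on few cells: 3 of the 5 primordial oocytes carried the time code of another stage, and without them 11 members were higher and 8 lower (36.5% and 33.1% of all genes), with Psmc1 at 2.91. Without the deepest cell of each group Psma8 stood at 1.11, and after thinning Psma1 stood at -0.90. On plate 6, primary (8) against transitioning oocytes (3) had 0 called in either direction (9.93% and 14.1% of all genes), with Psmb1 at 206.04 CPM in primary and 284 CPM in transitioning oocytes.

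Secondary oocytes had 3 of 13 members lower and 0 higher than primary oocytes on plate 5 (9.88% of all genes higher and 18.9% lower). Psmb5 had 0, 105.8, 149.8, 203.5 and 264 CPM in the 5 secondary oocytes, against 292, 416, 487 and 495 CPM in the 4 primary oocytes. The groups did not overlap, and the log2 ratio was -1.30. Psmg2 (-1.62) had 0, 16.6, 27, 27.1 and 29.7 CPM in secondary oocytes, against 16.5, 20.3, 91.4 and 176.5 CPM in primary oocytes, which overlapped. Psmc3ip stood at -1.16. On plate 6, with 2 secondary and 8 primary oocytes, Psmd10 (-1.52), Psmg3 (-1.34) and Psmd12 (-1.04) of 8 members were lower and none higher (9.34% of all genes higher and 28.3% lower); Psmd12 had 138.9 and 258 CPM in the secondary oocytes, against 280 to 547 CPM in the primary oocytes (median 394).

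In somatic cells of plate 1 most members were higher in primary and secondary than in primordial cells, whereas on plate 5 the share called higher against primordial cells was close to that of all genes. On plate 1, 17 of 24 members were higher and 0 lower in primary (5 cells) than in primordial somatic cells (19 cells), where 32.3% of all genes were higher and 36.7% lower. In secondary (5 cells) against primordial somatic cells 15 of 23 were higher and 0 lower (34.3% and 37.1%). The 2 comparisons share the primordial cells. Psma1 had 0 to 656 CPM in primordial somatic cells (median 0; reads in 6 of 19), 401, 779, 879, 1346 and 1663 CPM in the primary cells, and 552, 918, 995, 1108 and 1709 CPM in the secondary cells. Reads were in every primary and secondary cell, and the log2 ratios to primordial cells were 2.92 and 2.75. Psmd1 had 0, 578, 605, 705 and 745 CPM in primary cells and 406, 562, 834, 1155 and 1880 CPM in secondary cells, against a primordial median of 0 (2.18 and 2.61). Psmc4, an ATPase, stood at 2.26 and 2.71, Psmg1 at 3.75 and 3.73, and Psmd2 at 1.12 and 1.88. Psmb9 stood at 4.20 in primary cells, with reads in 4 of 5, and at 1.80 in secondary cells, with reads in 3 of 5, against 11 counts in 1 of 19 primordial cells.

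Not all members were called: Psmb4 stood at 0.55 and 0.21, Psmb1 at 0.53 and 0.80, and Psme4 at -0.27 and 0.03. Summed over the 8 listed core genes, the per-cell level had medians of 1556, 1985, 5527 and 5275 CPM from primordial to secondary somatic cells. Over the 9 regulatory particle genes the medians were 1205, 2944, 4220 and 6079 CPM. The core share had medians of 52.2%, 55.7%, 51.6% and 46.5% over the same stages. Depth moved with the stage: the median total count was 361900 in primary and 311480 in secondary cells, against 63070 in primordial cells, and the median rRNA share 15.5% and 16.1%, against 32.5%, and the part of depth and RNA quality in these differences was not tested. Transitioning cells (8) had 13 members higher and 3 lower than primordial cells (28.5% and 44.8% of all genes), led by Psmb9 (4.65), Psmg4 (2.89), Psmb10 (2.88), Psmd8 (-2.07), Psmc1 (-1.79) and Psmc4 (-1.31), but 1 cell held 91.8% of the Psmb9 counts there, and the mean of single-cell CPM put Psmc4 at 1.09. Without the cells that stood apart the log2 ratio of the core sum was 0.72 in place of 1.41. That of the regulatory particle sum was 0.89 in place of 0.74.

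**Figure D4:**
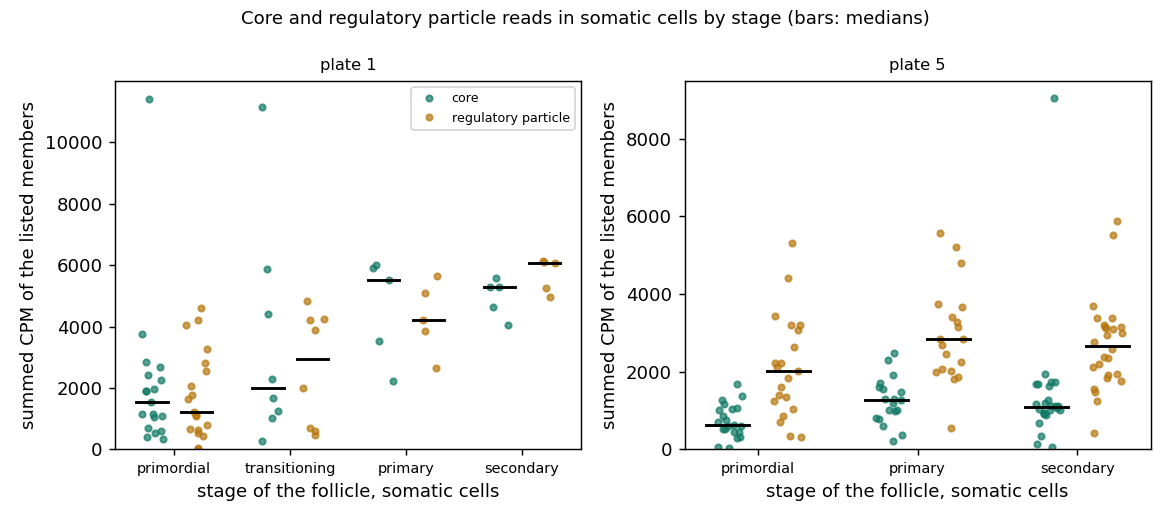
Summed CPM of the listed core genes and of the listed regulatory particle genes (vertical axis) in each somatic cell of plates 1 and 5 by follicle stage (horizontal axis); points are cells and bars are medians. On plate 1 the core medians are 1556, 1985, 5527 and 5275 CPM from primordial to secondary cells and the regulatory particle medians 1205, 2944, 4220 and 6079 CPM; on plate 5 the core medians are 629, 1285 and 1096 CPM in primordial, primary and secondary cells.

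Plate 5 listed other members and had the same stages without transitioning cells. Primary somatic cells (19) had 6 of 16 members higher and 0 lower than primordial cells (21), where 34.5% of all genes were higher, 23.2% lower and the median was 0.42. Psmb1 had 216.4 to 1246 CPM in primary cells (median 764) and 5.93 to 1008 CPM in primordial cells (median 316), a ratio of 1.44 and of 1.02 beyond the median of all genes. Psmb5 (1.33), Psmc2 (1.26), Psmd3 (1.18), Psmc3ip (2.51) and Psma8 (2.40) were the others, and 1 primary cell held 92.5% of the Psma8 counts. Secondary cells (26) had 6 of 16 higher and 0 lower than primordial cells (31.3% and 19%; median 0.39): Psmb5 (2.34), Psma8 (2.21), Psmb1 (1.78), Psmb8 (1.59), Psmd3 (1.19) and Psmb7 (1.15). The deepest secondary cell held 53.3% of the Psmb1 and 54.5% of the Psmb5 counts. Without the deepest cell of each group the core sum stood at 0.73 in place of 1.77. That secondary cell is the one whose core level stood apart. Without it alone the core sum stood at 0.92, with Psmb1 at 0.87, Psmb7 at 0.56 and Psma8 at -0.60.

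Secondary against primary somatic cells had 1 of 16 members higher and 2 lower (24% and 21%), namely Psmb5 (1.02), Psmc3ip (-1.96) and Psmb10 (-1.41), and without the deepest cells the core sum was -0.21 in place of 0.61. Without the secondary cell that stood apart Psmb5 stood at 0.064. Psmd4 and Psmd5 were not called in any stage comparison of plate 5; Psmd4 had 426, 453 and 452 CPM in primordial, primary and secondary cells. The share of Psmb8 in its pair with Psmb5 was 17.3%, 13.5% and 11.03% over the 3 stages, and that of Psmb10 in its pair with Psmb7 12.9%, 16.7% and 4.28%. These are shares of summed counts, and the secondary cell that stood apart held most of the secondary Psmb5 counts. The shares without that cell were not computed, so a change with the stage cannot be read from them.

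Other genes of the pathway, a list of shuttle and control genes, were read beside the members. On plate 1, 2 of 12 tested were higher and 5 lower in oocytes, where 25.9% of all genes were higher and 37.9% lower. Those higher were Nploc4 (2.58), an adaptor of the unfoldase Vcp, and Akirin2 (2.40), which carries proteasomes into the nucleus. Those lower in oocytes included Nfe2l2 (-3.22), the transcription factor of the antioxidant response, Zfand5 (-2.02), Txnl1 (-1.18), a thioredoxin bound to the regulatory particle, and Vcp (-1.04). On plate 5, 2 of 7 were higher and 0 lower, where 23.3% of all genes were higher and 48% lower. The 2 were Ngly1 (2.24) and Ddi2 (1.67), the deglycosylase and the protease that activate the transcription factor of proteasome genes Nfe2l1. Sem1, a small lid subunit, was higher on plates 2 and 4 (1.81 and 1.25), stood at 0.23 on plate 5 and at -0.83 on plate 6. Txnl1 was lower on plates 1, 2, 4 and 6 (-1.18, -1.85, -1.64 and -1.999) and stood at -0.79 on plate 5. The shuttle gene Ubqln4 was lower on plate 6 (-2.25).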

How the data were processed

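Single oocytes and follicle somatic cells were sequenced as SMART-Seq2 libraries without molecular identifiers. The authors deposited a table of estimated counts per gene and cell (expected counts, not normalized; 17.2% of the values above 0 were not whole), aligned to GRCm38 and analysed in Seurat 4 per the labels; the aligner is not given in the sources used here. The deposited cell metadata give the shares of rRNA, mitochondrial and duplicate reads as a fraction, which is printed as a percentage. The authors' module score and batch correction were not repeated. Of 25149 rows, 27 that had dates for names were left out (0.0743% of counts).

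For each cell type or stage on a plate, the counts of all its cells were added up and scaled to a total of 1000000 (CPM, computed here). No group has a replicate, so no test was run, and intervals are exact binomial ones for a split of counts at 95%. A member was called at a log2 ratio of at least 1 in size with a mean CPM of at least 10; against 0 counts a floor of 3 counts over the group gives a bound. There were 15 comparisons. Members named with values were those called in the same direction on 2 or more plates, the 3 highest and the 3 lowest of each comparison, the catalytic pairs, Psma8, Psmb11 and members listed on every plate; other members named were chosen after their values were seen. The members and gene lists were chosen with earlier results of these data known. The labels of 2 somatic cells of plate 1 disagree on the stage, and 3 of its primordial oocytes carry another stage's time code; all were kept under their titles. Alternatives were the mean of single-cell CPM, scaling by TMM (edgeR 4.0.16) and by median of ratios (DESeq2 1.42.0), totals over the 13266 genes listed on every plate, a minimum CPM of 50 or none, the deepest cell left out, and cells thinned to 5000 counts. The log2 ratios and their intervals were checked on simulated counts with counting error only and no spread between cells. The rule for a call was not part of that check. Gene models were from GENCODE M21. Python 3.11.15, numpy 2.4.6, pandas 2.3.3, scipy 1.17.1, matplotlib 3.10.9 and R 4.3.3 were used. Some genes of the pathway list are not reported here.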

Additional observations from a re-analysis of the deposited data

Results flagged for a closer look

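Psma8, the germline alpha subunit, had opposite directions on different plates. Its log2 ratio of oocytes over somatic cells was at least 6.63 on plate 1, where 9 of 13 oocytes and 0 of 37 somatic cells had reads, and -1.61 on plate 5, where 2 of 10 oocytes and 11 of 66 somatic cells had reads. The difference between the plates was not tested. Summed core and regulatory particle levels per cell were checked for a single outlying cell in the groups of 4 to 10 cells. The check covered 18 sets of values and flagged none, and larger groups were not checked this way. The somatic cells whose core level was over 1.5 times that of the next cell are given above. They include a transitioning cell of plate 1 from a group of 8 cells, which the check covered but did not flag.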

How the results depend on the processing

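No paired analysis was possible because each cell is a sample of its own and the replicate numbers of the labels pair no oocyte with a somatic cell. Of the recomputed counts of called members, 31 moved by more than 1.5 times and the others did not. Of 50 recomputed core minus regulatory particle differences, 20 stayed within the interval, 23 moved and 7 reversed, and of 1051 recomputed ratios of single members, 630 stayed, 395 moved and 26 reversed. The cause was not tested. The alternatives restricted to a stage, without the cells that stood apart in core level, without the most abundant core and regulatory genes, and by the medians of the members were chosen after seeing the data.

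The core minus regulatory particle difference on plate 1 was -0.89 as a mean of single-cell CPM, -1.11 without the deepest cell, -0.72 without the cells that stood apart, -0.65 without cells with differing labels, -1.39 in primordial and -0.59 in primary cells, -0.70 without the most abundant genes and -1.05 by medians. On plate 2 it was 0.018 as a mean of cells, 0.31 without the deepest cell, 0.23 without the cell that stood apart, 0.055 after thinning, -0.25 with primordial oocytes only, 0.20 without the most abundant genes and -0.54 by medians. On plate 4 these were 0.051 as a mean of cells, -0.14 without the deepest cell, 0.17 after thinning, -0.45 without the most abundant genes and -0.50 by medians. On plate 5 it was -0.69 as a mean of cells, -0.49 without the cell that stood apart, -0.58 after thinning, -0.71 in primary and -1.35 in secondary cells, -0.35 without the most abundant genes and -0.41 by medians. On plate 6 it was -0.49 after thinning, -0.51 in secondary cells and -1.71 without the most abundant genes.

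For oocytes against somatic cells, the number of members called was 3 on plate 2 with a minimum CPM of 50 and 3 after thinning. It was 5 on plate 4 with TMM and 5 with median of ratios, 1 with a minimum CPM of 50, 4 with no minimum and 1 after thinning. It was 2 on plate 5 after thinning, and on plate 6 it was 2 with TMM, 2 with median of ratios and 8 in secondary cells. For primary against primordial oocytes it was 1 as a mean of cells, 2 with TMM, 3 with median of ratios, 13 with totals over genes listed on every plate, 4 without the deepest cell and 19 without cells with differing labels. For primary against transitioning oocytes of plate 6 it was 1 with no minimum, 1 without the deepest cell and 3 after thinning. For secondary against primary oocytes it was 1 with TMM on plate 5 and 1 without the deepest cell on plate 6. For primary against primordial somatic cells it was 11 after thinning on plate 1, and on plate 5 it was 3 as a mean of cells, 2 with TMM, 2 with median of ratios and 14 with totals over genes listed on every plate. For secondary against primordial somatic cells of plate 5 it was 2 as a mean of cells, 11 with those totals, 3 without the deepest cell and 3 without the cell that stood apart. For most of these settings no share of all genes called is given, so the counts describe the settings and not the members. With those totals the median log2 ratio of all genes moved as well. It was -1.13 in place of -0.51 for primary against primordial oocytes. In plate 5 somatic cells it was 0.97 in place of 0.42 for primary and 0.95 in place of 0.39 for secondary against primordial cells.

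Single members reversed on plates 1 and 5. On plate 1, oocytes against somatic cells, thinning gave Psmd14 at 0.12, Psme3 at -0.076 and Psmg4 at 0.050, and primordial cells alone gave Psmd14 at 0.34; on plate 5 thinning gave Psma8 at 0.92. In primary against primordial oocytes, leaving out the deepest cell gave Psma8 at 1.11 and Psmd14 at 0.27, thinning gave Psma1 at -0.90 and leaving out differing labels gave Psmc1 at 2.91. In transitioning against primordial somatic cells, the mean of cells gave Psmb4 at -0.32, Psmc4 at 1.09, Psmd1 at -0.41 and Psmd6 at -0.18, leaving out the deepest cell gave Psmb1 at -0.18, Psmb4 at -0.62 and Psmd1 at -0.63, leaving out the cells that stood apart gave Psmb1 at -0.0040 and Psmd1 at -0.49, and thinning gave Psmb1 at -0.23, Psmb4 at -0.21, Psmc4 at 1.25, Psmd1 at -1.34 and Psmd6 at -0.45. In plate 5 somatic cells, leaving out the deepest cell gave Psma8 at -1.25 for primary and -0.76 for secondary against primordial cells, and leaving out the cell that stood apart gave -0.60 for the secondary cells.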
